A study of Mus musculus with 8 samples.

Results

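The genes described are the proteasome subunits and their assembly factors in mouse embryonic and hematopoietic stem cells with and without the zinc finger transcription factor Zfx. They were chosen by symbol: every gene whose symbol begins with Psma to Psmg and a digit, except the immunoproteasome subunits Psmb8, Psmb9 and Psmb10, together with Pomp and Adrm1. Of the 18193 genes that had a probe set with a single symbol, 47 matched, and each was read by its brightest probe set over the 8 arrays. These were 16 subunits of the core particle, 17 of the regulatory particle, 5 assembly factors of the core, 3 of the base of the regulatory particle, 4 genes of other caps and of an inhibitor, and 2 genes (Psmc3ip and Psme3ip1) that share the name but are not subunits. Adrm1 and Psme2 had no probe set of their own symbol alone and are not counted among the 47.

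The data are 4 groups of 2 Affymetrix Mouse Genome 430 2.0 arrays. Embryonic stem cells (ESC) were clones grown on gelatin with LIF and 15% serum replacement, and their Zfx gene was flanked by loxP sites in the control clones (Zfx-flox) and deleted in the others (Zfx-null). The sources used here give neither the number of clones nor the way Zfx was removed in them. The hematopoietic group (HSC) held cells sorted from marrow as Lin- Sca-1+ c-Kit+, a gate that takes in stem cells and multipotent progenitors. For each sort, marrow of 4 to 6 littermates was pooled and 50000 cells were taken. These mice were Zfxflox/y with Mx1-Cre (Zfx-cko) or Zfxflox/y without Cre (Zfx-flox). Both were injected with pI·C, an inducer of interferon, and were taken 4 days after the last injection, so the injections are shared by both HSC groups and Cre is not. The Mx1 promoter answers to interferon in many tissues of the mouse, not in stem cells alone. The sources used here do not give the age of the mice. Embryonic RNA (2500 ng) passed through 1 round of linear amplification and marrow RNA (100 ng) through 2. Hybridization was in duplicate, and nothing states that the arrays of a group came from separate cultures or pools, so the p-values rest on array-to-array spread, which may be technical.

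The proteasome is the main protease of the cytosol and nucleus and degrades proteins tagged with ubiquitin. Its core particle is a barrel of stacked rings: alpha subunits form the outer rings and gate the entrance, and beta subunits form the inner rings that hold the proteolytic sites. A regulatory particle sits on the core; its base unfolds substrates with a ring of ATPases, and its lid removes ubiquitin. Dedicated chaperones assemble both particles, and other caps can open the core without ubiquitin. Hematopoietic stem cells are known to depend on tight control of protein synthesis and turnover.

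The arrays went with their labels where the data could tell. Zfx, read by a probe set shared with a pseudogene, had signals of 285 and 298 in ESC Zfx-flox against 1.32 and 0.878 in ESC Zfx-null. In HSC that probe set lay between 0.305 and 7.22 in both groups, so it checks nothing there. The 6 embryonic stem cell markers summed to at least 10928 on every ESC array and to at most 135 on any HSC array, and the 5 measured marrow progenitor markers reached 4803 or more on each HSC array. Ly6a, which encodes Sca-1, was not among the genes read by a probe set of 1 symbol. Median signals per array ran from 38.4 to 66.5 on the deposited linear scale.

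In HSC the proteasome genes were lower in Zfx-cko than in Zfx-flox, with a median log2 change of −0.64 over the regulatory particle and of −0.27 over the core. Of 46 tested members, 36 fell and 0 rose (limma, Benjamini-Hochberg adjusted p under 0.05 over 12533 genes), where 19.8% of all tested genes fell and 22.6% rose. The median log2 change of the members was −0.51, against 0.03 over all tested genes, and 44 of the 46 estimates were below 0. Psmd2, Psmd12, Psmd6 and Psmd1 fell to less than 1/2 of their level, where 3.51% of all tested genes fell as far. In ESC, with the same 46 genes tested, 9 fell and 4 rose, where 14.9% of all tested genes fell and 15.7% rose. The median in ESC was −0.03, the same as over all 12676 tested genes. Each array reads a bulk population, so fewer cells of a type and less RNA per cell cannot be told apart.

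**Figure D1:**
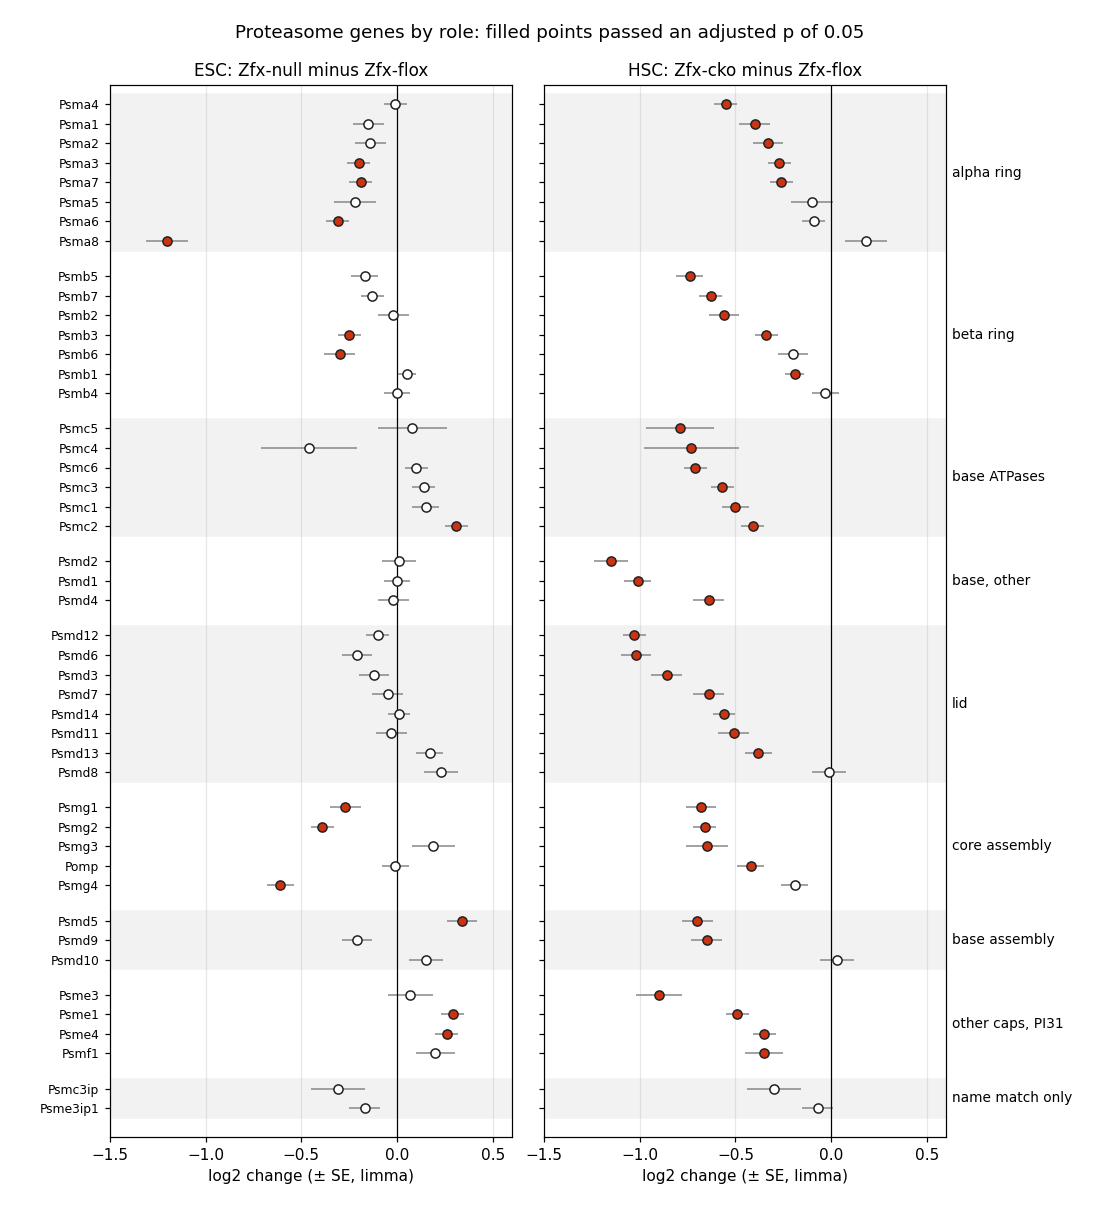
Log2 change of each tested member in ESC (Zfx-null minus Zfx-flox) and HSC (Zfx-cko minus Zfx-flox), ordered by role, as fitted by limma with standard errors; filled points passed an adjusted p of 0.05. The 17 regulatory particle genes lie left of 0 in HSC, with medians of −0.64 for this particle and −0.27 for the core.

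Several other measures moved between the same HSC groups, and their part in the fall was not tested. All 5 measured markers of marrow stem and progenitor cells rose in Zfx-cko, and their summed signal went from 4803 and 5009.5 in Zfx-flox to between 13104 and 13321. Meis1, a transcription factor of stem and early progenitor cells, rose from 579 and 611 to 3181 and 3305. Flt3, a receptor of multipotent and lymphoid progenitors, rose from 289.7 and 367 to 1757 and 1901. Of the 5 granulocyte and monocyte markers, Lyz2 and Csf3r rose. The list's sum went from 9174 to 9323 in Zfx-flox to 11532 to 12324 in Zfx-cko. Most of it was Mpo, at 8299 and 8137 against 10524 and 9808, which did not pass (adjusted p = 0.299, limma). Elane went the other way, from 386 and 423 to 301 and 292, and did not pass (adjusted p = 0.0879, limma). The erythroid sum went from 325 to 349.7 down to 124 to 138, through Epor, and the lymphoid sum from 1146 to 1176 up to 2822 to 3034, through Nkg7. The stromal sum went from 340.4 to 347 up to 952 to 1022, through Pdgfrb. Of these lists, Itgam, Cd79a, Cd3e, Cd4, Hba-a1 and Alas2 stayed at or below 37.8 on every HSC array. The log2 ratio of the 5′ to the 3′ Gapdh control probe sets, which falls when transcripts are cut short, was −4.68 and −4.39 in HSC Zfx-cko and −4.18 and −4.25 in its controls, while it lay between 0.38 and 0.44 in ESC.

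All 9 tested genes of the base of the regulatory particle were lower in HSC Zfx-cko, with a median of −0.71. Psmc2 alone of the 9 passed the test in ESC, where it rose. Over all tested genes 19.8% fell in HSC, and 30.6% passed in ESC in either direction. The base gene Adrm1 had no probe set of its own symbol alone. Psmd2 and Psmd1 encode the large scaffold subunits on which the ATPase ring, ubiquitin receptors and shuttle proteins dock. Psmd2 had signals of 2689 and 2469 in HSC Zfx-flox against 1130.0 and 1172 in HSC Zfx-cko. Both Zfx-cko arrays lay far below both Zfx-flox arrays, a log2 change of −1.15 ± 0.09 (SE, 2 arrays per group, adjusted p = 2.46e-05, limma). In ESC its signals were 2512 and 2207 in Zfx-flox against 2524 and 2222 in Zfx-null, and the groups overlapped (0.01 ± 0.09, adjusted p = 0.958). Psmd1 read 1737 and 1806 in HSC Zfx-flox against 919 and 833 in HSC Zfx-cko, a change of −1.01 ± 0.07 (adjusted p = 1.06e-05, limma). In ESC it read 2265 and 2357 in Zfx-flox against 2331 and 2296 in Zfx-null, which lie inside the Zfx-flox range (0.00 ± 0.07, adjusted p = 0.987). Psmd4, a ubiquitin receptor, read 1254 and 1258 in HSC Zfx-flox against 866 and 742 in HSC Zfx-cko (−0.64 ± 0.08, adjusted p = 0.00027, limma).

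The 6 ATPases that thread substrates into the core each fell in HSC, with log2 changes from −0.79 to −0.41. Psmc2, the brightest of them on the HSC arrays, read 11738 and 11879.7 in Zfx-flox against 8488 and 9280.5 in Zfx-cko, so that it fell by 24.8%. In ESC it went the other way, from 3193 and 3246 to 3925 and 4039. Psmc6 read 3238 and 3536 in HSC Zfx-flox against 2036 and 2079 in Zfx-cko (−0.71 ± 0.06, adjusted p = 5.59e-05, limma). Psmc5 was dimmer, at 410.2 and 418 against 232 and 235 (−0.79 ± 0.18), and its ESC arrays were uneven within each group, at 2959 and 1969 in Zfx-flox against 2908 and 2248 in Zfx-null. Psmc3 read 2211 and 2006 against 1420.1 and 1401 (−0.57), and Psmc1 read 839 and 930.4 against 622 and 618 (−0.50 ± 0.07). With the mean of all probe sets of a gene in place of the brightest, Psmc1 was at −0.28 and did not pass (adjusted p = 0.172, limma). Psmc4 read 2230.2 and 2144 in HSC Zfx-flox against 1305 and 1325 in Zfx-cko, but 1 of its ESC Zfx-null arrays, at 1275 against 2513, widened the pooled error. Its change of −0.73 ± 0.25 passed narrowly (adjusted p = 0.049, limma) and did not pass when either ESC Zfx-flox array or any 1 of the 4 HSC arrays was left out, with adjusted p between 0.0663 and 0.164. A further Psmc4 probe set, at a mean of 383 in HSC Zfx-flox, gave −0.70 with an adjusted p over probe sets of 0.000179.

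The lid, which holds the deubiquitinase and a horseshoe of scaffold subunits, had 7 of 8 genes lower in HSC Zfx-cko and 0 past the test in ESC. Over all tested genes 19.8% fell in HSC, and 30.6% passed in ESC in either direction. Psmd12 and Psmd6, both horseshoe scaffolds, fell most. Psmd12 read 2076 and 2013 in HSC Zfx-flox against 1013 and 974 in HSC Zfx-cko, a change of −1.03 ± 0.06 (adjusted p = 6.65e-06, limma). Its ESC arrays read 1928 and 1875 against 1723 and 1837, a change of −0.10 that did not pass (adjusted p = 0.28, limma). Psmd6 read 2363 and 2407 against 1107 and 1232 in HSC (−1.02 ± 0.08, adjusted p = 2.77e-05, limma). In ESC it read 2606 and 2328 in Zfx-flox against 2217 and 2052 in Zfx-null (−0.21, adjusted p = 0.0874). Psmd3 read 702 and 638 in HSC Zfx-flox against 354 and 370.2 in Zfx-cko (−0.86 ± 0.08). Psmd14, the deubiquitinase of the lid, went from 5153 and 5136 to 3567 and 3421 and fell by 32%. Psmd7, its inactive partner, went from 433 and 435 to 292 and 257 (−0.64 ± 0.08). Psmd11 went from 5075 and 5309 to 3518 and 3777 (−0.51 ± 0.08), and Psmd13 from 1225 and 1259 to 942 and 960.3 (−0.38 ± 0.07). Averaged over their probe sets, Psmd7 was at −0.03 (adjusted p = 0.895) and Psmd13 at 0.07 (adjusted p = 0.643, limma), and neither passed. Psmd8 was the exception: it read 690.2 and 769 in HSC Zfx-flox against 779 and 674 in Zfx-cko, the groups overlapped, and the change was −0.01 ± 0.09 (adjusted p = 0.962, limma). The lid gene Sem1, which the name rule does not take in, read 5547 and 5225 against 4069 and 3658 in HSC (−0.48 ± 0.15, adjusted p = 0.0288, limma). Sem1 fell in ESC too, from 2407 and 1906 to 1659 and 1242 (−0.57 ± 0.15, adjusted p = 0.0191, limma). Its HSC change minus its ESC change was 0.09 and did not pass (adjusted p = 0.764, limma).

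**Figure D2:**
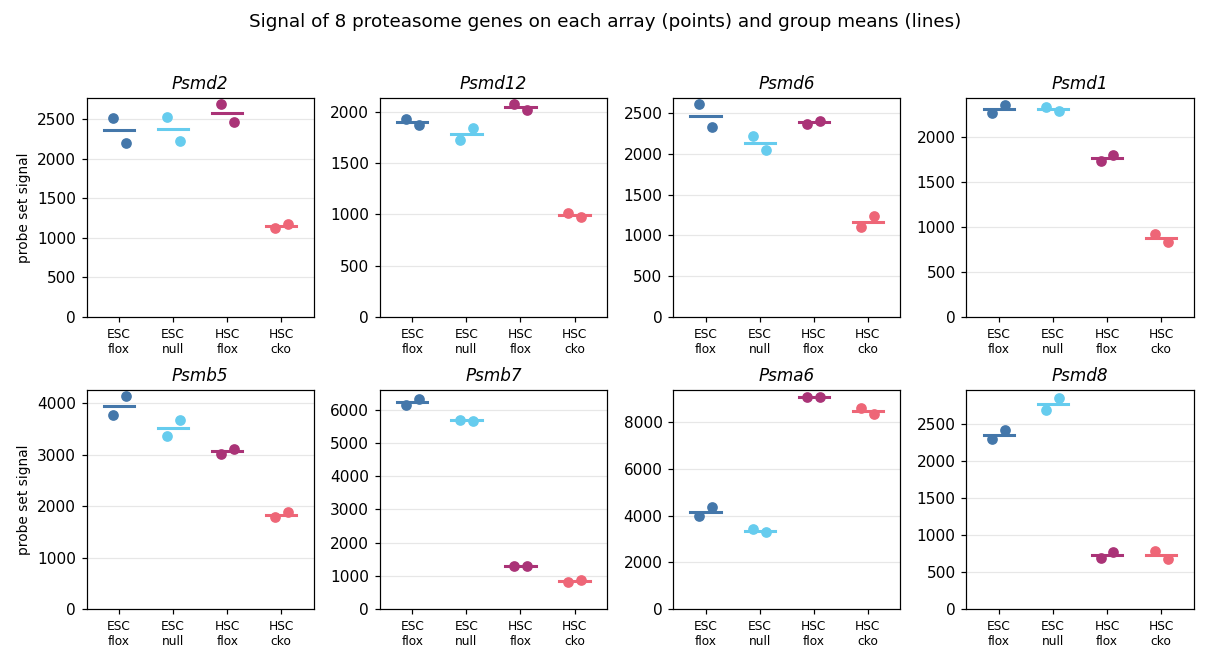
Deposited signal (linear intensity, axis from 0) of 8 members on each of the 8 arrays; points are arrays and short lines are group means of 2. The 2 HSC Zfx-cko arrays of Psmd2 lie at 1130.0 and 1172, below the HSC Zfx-flox arrays at 2469 and 2689, while the arrays of Psmd8 overlap.

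The start regions of 3 of the most lowered regulatory genes, and of the catalytic core gene Psmb5 (results below), are shown because stress factors such as Nfe2l1 and Nfe2l2 are known to act on proteasome genes through antioxidant response elements. The windows run from 250 bases before to 50 after the RefSeq start on GRCm38.p6 and read 5′ to 3′ on the gene's strand. Capitals mark a match to TGACNNNGC, the element's core as searched on both strands. Psmd1 lies at chr1:86064369-86064668 (+ strand), Psmd2 at chr16:20651402-20651701 (+ strand), Psmd12 at chr11:107479278-107479577 (+ strand) and Psmb5 at chr14:54617946-54618245 (− strand).
Psmd1: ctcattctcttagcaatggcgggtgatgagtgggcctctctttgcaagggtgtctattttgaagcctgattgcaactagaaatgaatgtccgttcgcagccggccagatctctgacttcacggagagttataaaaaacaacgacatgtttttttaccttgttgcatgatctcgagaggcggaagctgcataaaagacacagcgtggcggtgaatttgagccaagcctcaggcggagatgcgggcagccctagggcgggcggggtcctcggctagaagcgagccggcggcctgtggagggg
Psmd2: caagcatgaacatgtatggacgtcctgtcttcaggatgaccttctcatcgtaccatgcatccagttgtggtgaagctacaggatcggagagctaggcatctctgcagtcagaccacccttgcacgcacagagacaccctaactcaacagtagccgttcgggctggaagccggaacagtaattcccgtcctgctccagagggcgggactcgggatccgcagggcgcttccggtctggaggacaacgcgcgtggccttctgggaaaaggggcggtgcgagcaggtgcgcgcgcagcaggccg
Psmd12: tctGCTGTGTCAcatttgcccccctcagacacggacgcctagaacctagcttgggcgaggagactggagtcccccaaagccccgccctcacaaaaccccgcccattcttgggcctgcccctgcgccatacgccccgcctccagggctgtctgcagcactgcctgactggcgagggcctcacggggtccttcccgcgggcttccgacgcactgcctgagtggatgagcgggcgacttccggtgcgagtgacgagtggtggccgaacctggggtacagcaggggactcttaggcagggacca
Psmb5: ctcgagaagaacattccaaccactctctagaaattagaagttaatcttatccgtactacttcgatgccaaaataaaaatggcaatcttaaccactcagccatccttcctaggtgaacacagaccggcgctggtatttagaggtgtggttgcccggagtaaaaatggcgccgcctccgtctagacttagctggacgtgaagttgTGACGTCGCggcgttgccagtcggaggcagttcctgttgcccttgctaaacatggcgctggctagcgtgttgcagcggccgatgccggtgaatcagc
The starts are those of the RefSeq promoter table; for Psmd2 the table's start lies inside the RefSeq gene record, which begins upstream at 20651122. The letters occurred in Psmb5, beginning 47 bases before the start, and in Psmd12 on the opposite strand, beginning 247 bases before it. They were not found in these windows of Psmd1 and Psmd2. Promoters were matched for 39 of the 47 members, and 6 of them (15.4%: Psmb5, Psmb6, Psmc6, Psmd12, Psmd9 and Psme4) held the letters, against 14% of 27025 genes. AGGCCT, the core letters of the Zfx motif, stood in 3 of 39 (7.69%: Psmb11, Psmd10 and Psmd5), against 11.6% of all genes. CCAAT stood in 15 (38.5%), against 41.1%. A match is a description of the letters and not a site of binding.

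In the core particle 10 of 15 tested genes fell in HSC, where 19.8% of all tested genes fell. The core median was −0.27, with single values from −0.74 to 0.18. Among the beta subunits, the 3 with catalytic sites were Psmb5 (chymotrypsin-like), Psmb6 (caspase-like) and Psmb7 (trypsin-like). Psmb5 read 3016 and 3115 in HSC Zfx-flox against 1783 and 1876 in Zfx-cko, and fell by 40.1% (−0.74 ± 0.07, adjusted p = 7.58e-05, limma). Psmb7 read 1307 and 1299 against 805 and 866 (−0.63 ± 0.06). Psmb6 read 3524 and 3572 against 3098 and 3071, a change of −0.20 that did not pass (adjusted p = 0.0729, limma). Among the structural beta subunits, Psmb2 fell from 1723 and 1907 to 1251 and 1196 (−0.56 ± 0.08) and Psmb3 from 5711 and 5651 to 4516 and 4479 (−0.34). Psmb1 had a change of −0.19 ± 0.05 (adjusted p = 0.0198) that did not pass when any 1 of the 4 HSC arrays was left out (adjusted p of 0.0798 to 0.097, limma), nor with the mean of its probe sets (adjusted p = 0.181). Its signals were 4856 and 4812 in HSC Zfx-flox against 4223 and 4239.7 in Zfx-cko. Psmb4 read 7739 and 7811 in HSC Zfx-flox against 7790.1 and 7404 in Zfx-cko, and the groups overlapped. Psmb11, the beta subunit of thymic cortex, was too dim to test, at 3.89 to 31.3 over the 8 arrays.

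Among the alpha subunits, 5 of 8 fell in HSC, with a median of −0.26, where 19.8% of all tested genes fell. Psma4 fell most, from 1592 and 1647 in Zfx-flox to 1085 and 1123 in Zfx-cko (−0.55 ± 0.06, adjusted p = 0.000159, limma). Psma1 read 4673 and 4950.3 against 3720.1 and 3583 (−0.40 ± 0.08), and Psma3 read 6549.6 and 6771 against 5631 and 5440.5 (−0.27). Averaged over their probe sets, Psma1 was at 0.25 (adjusted p = 0.066) and Psma3 at −0.12 (adjusted p = 0.256, limma), and neither passed. Psma2 read 7543 and 7608 against 6122 and 5956, and Psma7 read 3707 and 3701 against 3147 and 3037. Psma2 (−0.33, adjusted p = 0.0131) did not pass when any 1 of the HSC arrays was left out, with adjusted p of 0.052 to 0.0763, and Psma7 (−0.26, adjusted p = 0.00658) did not pass without HSC Zfx-cko replicate 2 (adjusted p = 0.0528, limma). Psma6 read 9083 and 9069 in HSC Zfx-flox against 8631 and 8373 in Zfx-cko, a difference of −0.09 (adjusted p = 0.244, limma). Psma5 read 6948 and 7008 against 6510.2 and 6469 (−0.10 ± 0.11, adjusted p = 0.476). Psma8, an alternative alpha subunit best known from the testis, read 369 and 361 against 429 and 401 and did not pass (0.18 ± 0.11, adjusted p = 0.223). By brightest probe set, the plot of signals by array sets Psmb5 and Psmb7, whose HSC groups are far apart, against Psma6, whose HSC groups lie close. Other probe sets of Psma6 went both ways in HSC, at −0.46, 0.45 and 0.86. The second brightest of Psma5 gave −0.78.

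Of the 5 core assembly factors, 4 fell in HSC, where 19.8% of all tested genes fell. Psmg1 and Psmg2 form the chaperone pair that starts the alpha ring, and Psmg3 and Psmg4 a further pair; Pomp helps the beta ring form and half-barrels join. Psmg2 read 2315 and 2354 in HSC Zfx-flox against 1411 and 1537 in Zfx-cko (−0.66 ± 0.06, adjusted p = 7.41e-05, limma). Psmg1 went from 1802 and 1591 to 1058 and 1038 (−0.68), and Psmg3 from 1338 and 1400.1 to 897 and 836 (−0.65 ± 0.11). Pomp fell by 25.3%, from 2420.0 and 2471 to 1780.2 and 1866. Psmg4 read 1025 and 1059 against 899 and 927 and did not pass (−0.19, adjusted p = 0.0727, limma). Of the chaperones that guide the ATPases into the base, Psmd5 fell from 1019 and 968 to 600.4 and 609.5 (−0.70 ± 0.08) and Psmd9 from 512 and 474 to 311 and 305 (−0.65). Psmd10, known as gankyrin, read 417 and 380.3 against 408 and 404, with groups that overlapped. As means of their probe sets, Psmg3 was at −0.13 (adjusted p = 0.543) and Psmd9 at −0.30 (adjusted p = 0.0805, limma), and neither passed; the second brightest probe set of Psmd9 gave −0.15. The 2 genes that only share the name, Psmc3ip (−0.30, adjusted p = 0.127, limma) and Psme3ip1 (−0.07), did not pass in HSC.

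The genes of other caps and of the inhibitor fell in HSC as well, 4 of 4, where 19.8% of all tested genes fell. Psme3, the nuclear 11S activator, read 744 and 662 in HSC Zfx-flox against 359 and 382 in Zfx-cko (−0.90 ± 0.12, adjusted p = 0.000413, limma). Psme1, a subunit of the interferon-inducible 11S cap, fell from 2201 and 2282 to 1545 and 1633 (−0.49 ± 0.06), and Psme4, the large single-chain activator, from 1707 and 1717 to 1326 and 1356 (−0.35 ± 0.06). Psme4 as the mean of its probe sets was at 0.04 and did not pass (adjusted p = 0.734, limma). Psmf1, an inhibitor of the core, went from 254 and 259.8 to 209 and 189 (−0.35 ± 0.10, adjusted p = 0.025) and did not pass without HSC Zfx-cko replicate 2 or either HSC Zfx-flox array (adjusted p of 0.0767 to 0.132, limma). A probe set shared by Psme2, the partner of Psme1, and Psme2b read 2505 and 2969 against 1809 and 1557 (−0.70 ± 0.10, adjusted p over probe sets 0.00101, limma).

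The immunoproteasome subunits, which replace the catalytic beta subunits in immune cells and under interferon, were compared as neighbours of the members. Psmb10 fell in HSC from 2432 and 2555 to 1762 and 1822 (−0.47, adjusted p = 0.000334, limma). Psmb9 read 3050.0 and 3101 against 2475 and 2233 (−0.39, adjusted p = 0.14), and Psmb8 read 2253 and 2357 against 2113 and 2152 (−0.11 ± 0.11, adjusted p = 0.46, limma). With the peptide transporters Tap1, which fell (−0.41, adjusted p = 0.0466), and Tap2, 2 of the 5 genes of this list fell. Of 15 interferon-response genes tested in HSC, 5 rose and 2 fell, where 22.6% and 19.8% of all tested genes did. Rsad2 rose by 1.45 and Ifit1 by 1.30 on the log2 scale, and Gbp2 went from 2548 and 2786 to 1269 and 1301. The part of interferon signalling in the members' change was not tested.

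**Figure D3:**
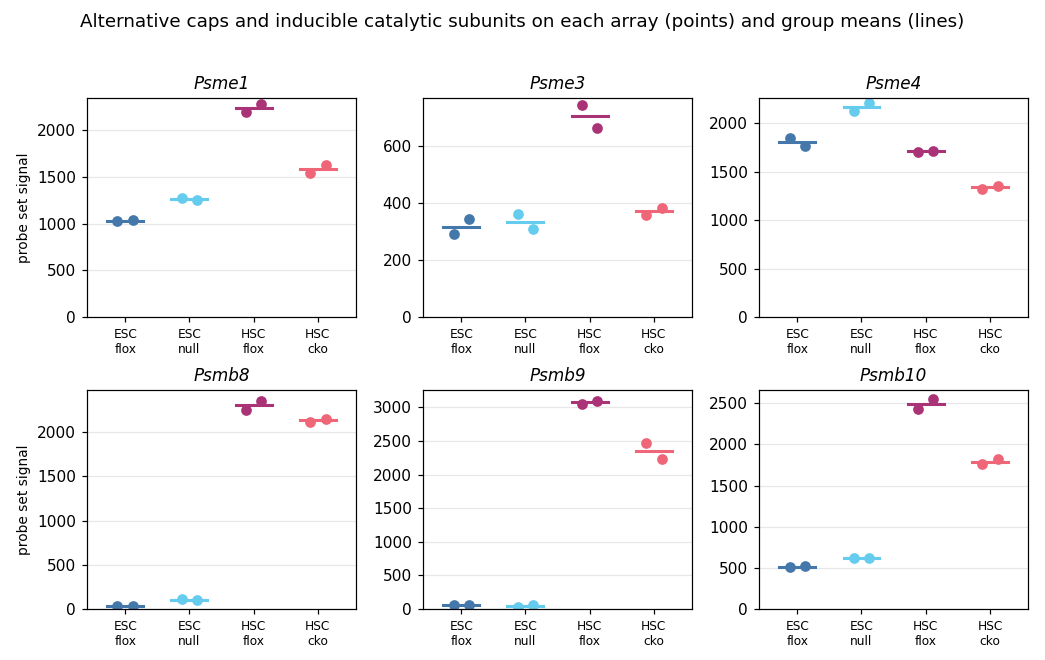
Deposited signal (linear intensity, axis from 0) of 3 genes of other caps and 3 immunoproteasome subunits on each array; points are arrays and short lines are group means of 2. Psme3 lies at 359 and 382 in HSC Zfx-cko against 662 and 744 in HSC Zfx-flox, while Psmb8 spans 2113 to 2357 over the 4 HSC arrays.

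In ESC 13 of the 46 members (28.3%) passed the test in either direction, a share near the 30.6% of all tested genes that did. Of 15 core genes 6 fell and 0 rose, with a median of −0.17. Of 17 regulatory genes 1 rose and 0 fell, with a median of 0.01. Over all tested genes 14.9% fell and 15.7% rose in ESC. Psma8 changed most, and it was the 1 member at least 2-fold lower, as 1.37% of all tested genes were. It read 308 and 278 in Zfx-flox against 110.3 and 129 in Zfx-null, a change of −1.20 ± 0.11 (adjusted p = 0.000146, limma). Psma6 read 3996 and 4360.2 against 3409.5 and 3313 (−0.31 ± 0.06, adjusted p = 0.00511), and Psmb6 read 3403 and 3769 against 2701 and 3110.4 (−0.30 ± 0.08, adjusted p = 0.0206, limma). Psma3 fell from 4216 and 4429 to 3713 and 3828 (−0.20 ± 0.06), Psma7 from 3581 and 3751 to 3116 and 3307 (−0.19) and Psmb3 from 3125 and 3324 to 2631 and 2792 (−0.25). Psma3, Psma7, Psmb3 and Psmb6 each lost the call when a single array was left out, ESC Zfx-null replicate 1 among others for all 4, with adjusted p without that array of 0.108, 0.154, 0.0646 and 0.105. Without that array 3 of the 15 core genes fell, without ESC Zfx-flox replicate 2 it was 2, and with arrays centred on their medians it was 1.

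Of the 5 core assembly factors 3 fell in ESC, where 14.9% of all tested genes fell. Psmg4 fell from 666 and 744 to 459 and 452 (−0.61 ± 0.07, adjusted p = 0.000613, limma). Psmg2 fell from 1764 and 1847 to 1385 and 1371 (−0.39 ± 0.06), and Psmg1 from 1952 and 1787 to 1572 and 1531 (−0.27). Psma6, Psmg2, Psmg4 and Psme4 did not pass in ESC when averaged over their probe sets, with adjusted p of 0.0814, 0.109, 0.148 and 0.736 (limma). The genes that rose were Psmc2 (0.31 ± 0.06, adjusted p = 0.00556, limma), Psmd5, Psme1 and Psme4. Psmc2 did not pass by its second brightest probe set (0.17, adjusted p = 0.194, limma). It also lost the call with median centring (adjusted p = 0.0516) and without the variance trend (adjusted p = 0.0921, limma). Psme1 went from 1025 and 1039 to 1279 and 1251 (0.29 ± 0.06) and Psme4 from 1846 and 1766 to 2129 and 2215 (0.26 ± 0.06). Psmd5 went from 916 and 843 to 1201 and 1041 (0.34 ± 0.08, adjusted p = 0.0164), and lost the call without ESC Zfx-flox replicate 2 (adjusted p = 0.0888) or ESC Zfx-null replicate 1 (adjusted p = 0.0866, limma). Psmg1 lost it without ESC Zfx-flox replicate 1 (adjusted p = 0.152), among others. Psmb8 and Psmb10 rose in ESC, Psmb8 from 30.3 and 39.5 to 112 and 98.6 (1.29 ± 0.11), a level far under that of the HSC arrays. All 5 markers of fibroblasts and stroma rose in Zfx-null, their sum from 12160.3 and 12439 to between 22764 and 23914, and of the 4 endoderm markers Dab2 rose. The sum of the 6 embryonic stem cell markers fell from 18482 and 18632 to between 10928 and 11245, with Pou5f1, Nanog and Tdgf1 past the test. The part of these changes in the members' values was not tested.

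The difference between the cell types was tested as the HSC change minus the ESC change. Of the 46 members, 30 were more negative in HSC and 2 more positive, where 17.7% and 17.6% of 11175 genes were, and the median difference was −0.52 against 0.03 over all genes. It passed for 15 of 17 regulatory genes, each more negative in HSC, with Psmd2 at −1.16 ± 0.12 (adjusted p = 0.000293, limma) and Psmd1 at −1.01 ± 0.09 (adjusted p = 0.00014). With the mean of all probe sets of a gene, the difference for Psmd2 was −0.21 and did not pass (adjusted p = 0.199, limma). It passed for 6 of 15 core genes: Psmb5 (−0.57), Psma4 (−0.54), Psmb2 (−0.54), Psmb7 (−0.50) and Psmb1 (−0.24) were more negative in HSC, and Psma8 (1.38 ± 0.15, adjusted p = 0.000319, limma) more positive. Psmb1 lost this call when any of several single arrays was left out. The members that fell in both cell types numbered 5 (Psma3, Psma7, Psmb3, Psmg1 and Psmg2, 10.9% of the 46 against 6.21% of 11175 genes), 4 rose in ESC and fell in HSC (Psmc2, Psmd5, Psme1 and Psme4, 8.7% against 2.79%), and 27 fell in HSC and did not pass in ESC (58.7% against 12.5%). Of these 27 the difference itself passed for 24; Psma1, Psma2 and Psmc4 were the others. The largest differences among the 4 of opposite sign were −1.04 ± 0.12 for Psmd5 and −0.78 for Psme1.

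The levels of the controls differed between the cell types, which is given without a test because the extra amplification round goes with the HSC arrays. Alpha subunits were higher in HSC Zfx-flox than in ESC Zfx-flox for 7 of 8 genes (median log2 difference of 0.69). Beta subunits were higher for 3 of 7 (−0.01) and regulatory genes for 7 of 17 (−0.12). Over all genes, 5022 of 11175 were higher, with a median of −0.15. By the second brightest probe set, Psma5 and Psma6 were again higher, but Psma1, Psma3 and Psma7 were lower. That of Psma7 had means of 2196 in HSC Zfx-flox and 3295 in ESC Zfx-flox. Psmc5 lay lowest in HSC, at −2.50, followed by Psmb7 at −2.24, and Psmc2 lay at 1.87. Such differences set probe sets of the same gene side by side and not genes against each other.

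The 47 members had 100 probe sets, and 25 members had at least 2 that were tested in HSC. In 9 of these genes the second brightest probe set had a mean of 1000 or more in HSC Zfx-flox, and all 9 of these second readings fell in HSC, with a median of −0.63 against −0.34 for the brightest ones. The second probe set of Psma5, at 4114, gave −0.78 (adjusted p over probe sets 2.55e-05, limma) where the brightest gave −0.10. That of Psma6, at 3806, gave −0.46 against −0.09, and that of Psmb4, at 5724, gave −0.41 against −0.03. In the other 16 genes, with a dimmer second probe set, 10 of the second readings were below 0, with a median of −0.39 against −0.52. Psmd2 had a second probe set of 25.5, near the floor, at 0.16, and Psmd6 one of 1267 at −0.92. The brightness limit was chosen after the values were seen. Of the core genes that did not pass in HSC by their brightest probe set, 3 (Psma5, Psma6 and Psmb4) passed by their second. Over all 88 probe sets of members tested in HSC, 56 fell and 4 rose (adjusted over probe sets, limma). The shares over all 27022 tested probe sets are not given here. With 1 probe set per gene, 19.8% of 12533 genes fell and 22.6% rose. The 4 member probe sets that rose were dimmer ones: 2 of Psma6, at means of 323 and 51.2 in HSC Zfx-flox (0.45 and 0.86), 1 of Psmd13 at 275 (1.34) and 1 of Psme4 at 111 (0.67). Psma6, Psmd13 and Psme4 thus each had probe sets that passed in both directions.

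**Figure D4:**
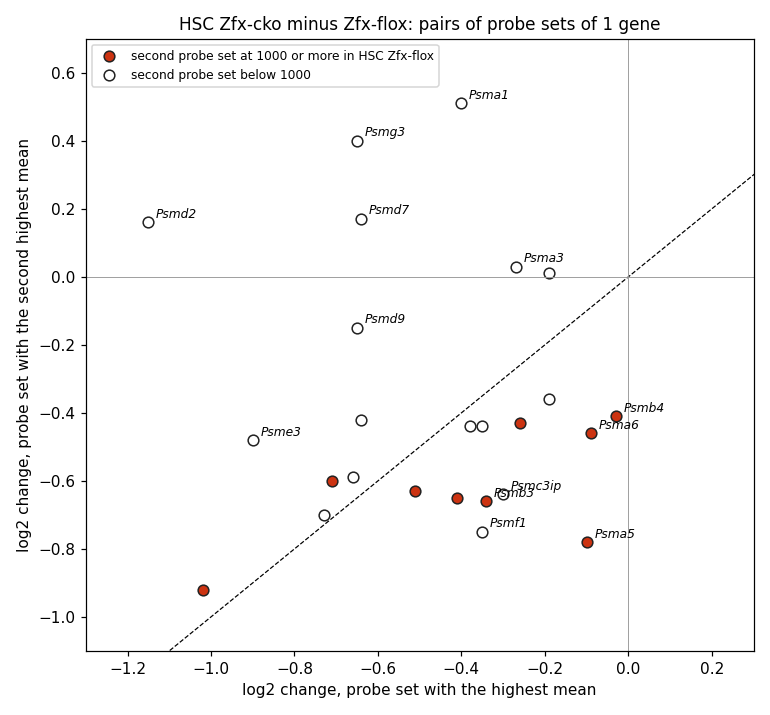
HSC log2 change (Zfx-cko minus Zfx-flox) by the brightest probe set of a member (horizontal axis) and by its second brightest (vertical axis), for the 25 members with both tested; the diagonal marks equal values. All 9 genes whose second probe set is at 1000 or brighter lie below 0 on the vertical axis.

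Genes that work around the proteasome were read from a list of 21 ubiquitin receptors, shuttles and regulators. Of these, 12 fell and 2 rose in HSC, with a median of −0.34, where 19.8% and 22.6% of all tested genes did. In ESC 3 fell and 3 rose, shares near the 14.9% and 15.7% of all tested genes, with a median of 0.06. Sem1 (−0.57), Ubqln4 (−0.34) and Nfe2l2 (−0.24) fell in ESC, and Ubqln2 (0.45), Bag1 (0.45) and Zfand5 (0.22) rose. Of these, Sem1, Ubqln4 and Nfe2l2 also fell in HSC and Zfand5 also rose there. Nfe2l2, a stress factor that acts on antioxidant response elements, read 2741 and 2880.4 in HSC Zfx-flox against 1132 and 1162 in Zfx-cko (−1.28 ± 0.06, adjusted p = 3.65e-06, limma). Nfe2l1, the factor known to restore proteasome genes when the proteasome is blocked, rose from 433 and 475 to 527 and 578 (0.27 ± 0.08, adjusted p = 0.0187); it is named after its values were seen, since its change was not among the 6 largest of the list. Vcp, the ATPase that pulls ubiquitinated proteins out of complexes, fell from 2671 and 2816 to 1406 and 1294 (−1.02 ± 0.06), and its cofactor Ufd1 from 468 and 461 to 229 and 247 (−0.92 ± 0.09, adjusted p = 7.65e-05, limma). Neither passed in ESC, where Vcp read 3669 and 3632 against 3628 and 3629 (adjusted p = 0.935, limma). Bag1, which links the chaperone Hspa8 to the proteasome, fell from 1419 and 1367 to 654 and 637 in HSC (−1.09) and rose in ESC (0.45, adjusted p = 0.0021). The shuttle gene Ubqln4 fell in HSC from 564 and 537 to 307 and 295 (−0.84). Zfand5, a proteasome activator, rose there from 2289 and 2335 to 3694 and 3658 (0.67 ± 0.06).

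**Figure D5:**
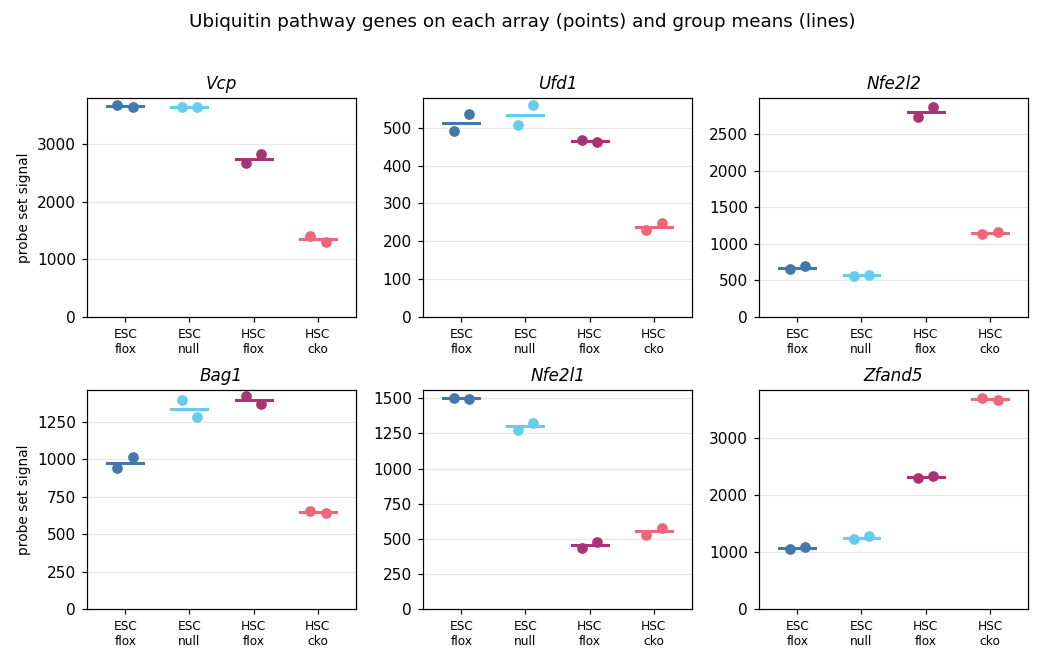
Deposited signal (linear intensity, axis from 0) of 6 genes of the ubiquitin and shuttling list on each array; points are arrays and short lines are group means of 2. Vcp, Ufd1, Nfe2l2 and Bag1 are lower in HSC Zfx-cko than in HSC Zfx-flox, and Nfe2l1 and Zfand5 are higher.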

How the data were processed

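RNA of 4 groups was read on 8 Mouse Genome 430 2.0 arrays. The deposited values are linear probe set intensities, which per the submitters' processing notes came from the GCOS 1.4 software. The sources used here do not say how probes were summarised. Each array's mean after removal of the highest and lowest 2% was 250. All value columns were matched to samples by their labels.

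Gene symbols came from the platform annotation (34945 probe sets with 1 symbol, 932 with several, 9160 with none); each gene was read by its probe set of highest mean log2 value. After the 64 control probe sets were left out, a single model of the 4 group means was fitted to log2(intensity + 14.2), the 25th percentile, with limma 3.58.1 in R 4.3.3 (variance trend, 4 residual degrees of freedom). A fold change on this scale is understated for dim genes. Genes were tested where the mean of their cell type's 4 arrays reached the 40th percentile. Benjamini-Hochberg adjustment ran over all tested genes, threshold 0.05, or over probe sets where stated. Errors are standard errors. The script was tested on simulated data. The number of arrays limits the precision.

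Every member was to be named, with full values where a test was passed, and of other lists up to 6 members per comparison with the largest change; Nfe2l1 is an exception. Members, lists and tests were chosen with earlier results of these data known. Alternatives covered the pseudocount, scaling, filter, probe set rule, model and single arrays. Promoters were matched by symbol in a RefSeq table (GRCm38.p6).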

Additional observations from a re-analysis of the deposited data

Results flagged for a closer look

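The limma test of the HSC change minus the ESC change passed an adjusted p of 0.05 for 32 of the 46 tested members (69.6%). Over all 11175 genes tested, 35.3% passed. For the 32 members the change from Zfx-flox to Zfx-null or Zfx-cko arrays was thus not the same in the 2 cell types. The HSC groups also differ by Cre, by the marker genes and by the Gapdh ratio given above. HSC RNA had an extra amplification round, and loss of Zfx could not be checked in HSC. The part of these was not tested. In 30 the difference was negative. In the regulatory particle the log2 differences were −1.16 for Psmd2, −1.01 for Psmd1, −0.94 for Psmd12, −0.87 for Psmc5, −0.81 for Psmd6 and for Psmc6, −0.75 for Psmd3, −0.72 for Psmc2 and for Psmc3, −0.66 for Psmc1, −0.62 for Psmd4, −0.59 for Psmd7, −0.56 for Psmd14, −0.55 for Psmd13 and −0.48 for Psmd11. In the core they were −0.57 for Psmb5, −0.54 for Psma4 and for Psmb2, −0.50 for Psmb7, −0.24 for Psmb1 and 1.38 for Psma8. Among the assembly factors they were −1.04 for Psmd5, −0.85 for Psmg3, −0.44 for Psmd9, −0.42 for Psmg1, −0.41 for Pomp, −0.27 for Psmg2 and 0.42 for Psmg4. Among the caps and the inhibitor they were −0.97 for Psme3, −0.78 for Psme1, −0.61 for Psme4 and −0.55 for Psmf1. When each of the 8 arrays was left out in turn, 23 of the 32 kept the call every time; Pomp, Psmb1, Psmc5, Psmd11, Psmd9, Psmf1, Psmg1, Psmg2 and Psmg4 lost it at least once. Over all 19 settings, 12 of the 32 kept the call, and 5 changed sign in at least 1. With the mean of all probe sets of a gene, Psmd2 (−0.21), Psmc1 (−0.23), Psmd11 (−0.33), Psmb1 (−0.27), Psme4 (−0.00), Psmg2 (−0.19), Psmg3 (−0.22) and Psmg4 (0.13) lost it, besides those that changed sign. Groups of 2 arrays allow no test of a single outlying array.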

How the results depend on the processing

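In HSC the count of members that fell, 36, ran from 29 to 39 over the settings tried, of which 1 was added after seeing the data (the second brightest probe set), and from 31 to 37 with single arrays left out; 22 of the 36 kept the call under each of the 20 settings. In the core, 10 fell, against 6 without the variance trend and 7 to 11 with single arrays left out. The HSC median of −0.51 was −0.45 with quantile normalization over all arrays, −0.60 with median centring, −0.40 with the mean of a gene's probe sets and −0.53 to −0.47 with arrays left out. With that mean 1 member rose in HSC, the core gene Psma6. The HSC count of the regulatory particle, 16, stayed between 13 and 16. Of all tested genes 19.8% fell in HSC, against 14.4% without the variance trend and 22.5% with quantile normalization within cell types. The HSC median over all tested genes, 0.03, was −0.04 with quantile normalization over all arrays and −0.07 with median centring. With the mean of a gene's probe sets it was 0.03.

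In ESC the calls depended more on the settings: 1 of 13, Psma8, held under all. The 4 that rose became 1 with median centring, 0 without the trend and 2 by second probe sets (3 to 4 with arrays left out). In the regulatory particle the 1 became 0 in those same settings, 2 with quantile normalization within cell types or the replicate block and 3 with it over all arrays. The 9 that fell became 3 with median centring and 3 without the trend, 15 with the replicate block, and 5 to 8 with arrays left out. The 6 of the core became 1, 1 and, with each cell type fitted alone, 3 (2 to 6 with arrays left out). The 0 regulatory genes that fell became 1 by the mean of probe sets, 1 by second probe sets, 2 with the block and 0 to 1 with arrays left out. The ESC median of −0.03 became −0.00 with median centring, −0.09 by the mean, −0.10 by second probe sets and −0.08 to −0.03 with arrays left out. For the difference, 12 of 32 calls held under all 19 settings; the 30 became 19 without the trend (25 to 29 with arrays left out), and the 2 became 1 with median centring, 1 without the trend, 4 by second probe sets and 1 to 3 with arrays left out. Median centring moved the share of higher among all called genes for the difference from 49.9% to 36.7%. The share of all tested genes that fell in ESC moved as well, from 14.9% to 9.96% with median centring. It was 8.14% without the trend and 18.1% with the replicate block. The cause of these shifts was not tested.

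With the mean of probe sets these members lost the HSC call without a change of sign: Psma3 (−0.12), Psmb1 (−0.19), Psmc1 (−0.28), Psmd7 (−0.03), Psmd9 (−0.30) and Psmg3 (−0.13). Signs turned as follows. By the mean of probe sets: Psmd2 in ESC −0.29; in HSC Psma1 0.25, Psma6 0.19, Psmd13 0.07 and Psme4 0.04; difference Psmd13 0.17, Psmd7 0.33 and Psmd9 0.08. By second probe sets: in ESC Psmd2 −0.58 and Psmd6 0.04; in HSC Psma1 0.51, Psma3 0.03, Psmd2 0.16, Psmd7 0.17 and Psmg3 0.40; difference Psmd2 0.74, Psmd7 0.53, Psmd9 0.41 and Psmg3 0.41. Psmd10 in HSC was −0.08 and −0.07 with quantile normalization within and over cell types, −0.07 with median centring and −0.04 to 0.09 with arrays left out. Leaving out an array turned uncalled values only: Psmd1 (−0.03, −0.01) and Psmd2 (−0.08 in 2 settings) in ESC, and Psmb4 (0.00) and Psmd8 (−0.11 to 0.10, with 0.07 in a further setting) in HSC. Replicate numbers were not taken to pair arrays, because they are not stated to do so. Replicate differences of the 2 genotypes correlated at 0.319 in ESC and 0.0716 in HSC. Whether arrays of the same replicate number share a source was not tested. The replicate block gave 38 members lower in HSC, against 36 without it, and 15 lower in ESC, against 9.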
